A study of Mus musculus with 10 samples.

Results

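GLIS3 sites in pairs are binding sites with exactly 1 neighbouring site close by. The sites came from ChIP-Seq of thyroid glands of C57BL/6 mice kept for 2 weeks on a diet low in iodine. The ChIP mice were adult Glis3-EGFP mice, whose targeted Glis3 allele expresses GLIS3 fused to EGFP, and their chromatin was captured on agarose that carries a GFP-binding peptide. The control was the same capture from glands of wild type (WT) mice of the same background on the same diet, which carry no GFP. There was 1 library of each kind, and the spread between animals is therefore unknown. How many glands went into each library was not stated in the sources used here.

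The deposited list, on mm9, holds 18513 sites. Members were chosen by position alone: the midpoint of each site was taken, and neighbours on a chromosome whose midpoints lay at most 10 kb apart were chained into runs. Runs of exactly 2 sites gave 2158 pairs, or 4316 sites, which is 23.3% of the list. Another 8236 sites (44.5%) were single, and 5961 sites (32.2%) lay in 1484 runs of 3 or more. The gap within a pair is therefore a quantity the choice used and is described without a test. The number of tags at each site was not used by the choice.

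GLIS3 is a Krüppel-like zinc finger transcription factor that binds DNA at GLIS binding sites and is needed in thyroid follicular cells for the transcription of thyroid hormone biosynthetic genes. A low-iodine diet raises TSH, the pituitary hormone that drives these genes. Enhancers and promoters often hold several binding sites, and neighbouring sites may lie within 1 regulatory element or in separate elements of 1 gene. A site in the list is a place where tags on the sense strand give way to tags on the antisense strand, and its tag count measures how much DNA around it was recovered. The gene or regulatory element at each pair was not analysed here, since no mm9 genome or annotation was used, and no sequence is printed for the same reason.

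The 2 sites of a pair were often very close. The median gap was 1815 bp, with quartiles of 450 and 4800 bp and a range of 210 to 9980 bp. This median follows the chaining limit: it was 940 bp with chaining at 5 kb, 3710 bp at 20 kb and 4110 bp with sites within 1 kb merged. Of the 2158 pairs, 854 (39.6%, exact binomial 95% interval 37.5 to 41.7) had a gap of at most 1 kb. Every later 1 kb step held far fewer, from 270 pairs between 1 and 2 kb to 86 pairs between 9 and 10 kb. Such intervals treat pairs as independent and cover counting only.

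Within the first 1 kb the gaps were concentrated at the short end. The fullest step of 50 bp was 250 to 300 bp, with 141 pairs, and the step from 200 to 250 bp held 99. No gap was below 210 bp in pairs or in longer runs, so the lower step was not open over its whole width. Steps of 50 bp between 600 bp and 1 kb held 16 to 26 pairs each. In all, 476 pairs (22.1%) had midpoints within 2 fragment lengths (408 bp), where a fragment was set to 204 bp by the caller, and 601 (27.8%) lay within 500 bp. DNA fragments from 2 sites this close can overlap, and whether tags of 1 site were counted at the other, or whether 1 broad region was called as 2 sites, was not tested.

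The shortest gap of 210 bp, just above the fragment length, was shared by 19 pairs. The first of them lies on chromosome 1, with sites from 34197111 to 34197151 with 23 tags and from 34197311 to 34197371 with 14 tags. Its tags differed by less than counting error, since the stronger site's share of 62.2% has a 95% interval of 44.8 to 77.5. Another lies on the same chromosome, with 46 tags from 36136511 to 36136551 and 41 tags from 36136711 to 36136771, so both sites were strong. The third has 34 tags from 46942251 to 46942311 and 22 tags from 46942471 to 46942511.

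At the other end, 3 pairs sat just inside the limit, each with a gap of 9980 bp. They lie on chromosome 3 (10 and 12 tags, starting at 95355951 and 95365851) and on chromosome 13 (16 and 11 tags, starting at 29852971 and 29863011, and 23 and 17 tags, starting at 45369651 and 45379691). The 3 neighbours just outside had gaps of 10010 bp on chromosome 5 (9 and 10 tags), 10030 bp on chromosome 19 (28 and 9 tags) and 10040 bp on chromosome 1 (9 and 11 tags). Sites of the 3 pairs just inside the limit thus held 10 to 23 tags, and sites of the 3 neighbours just outside it 9 to 28. The neighbours are not all outside the pairs. Both sites on chromosome 5 and the lower-coordinate site on chromosome 1 are members of other pairs.

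**Figure D1:**
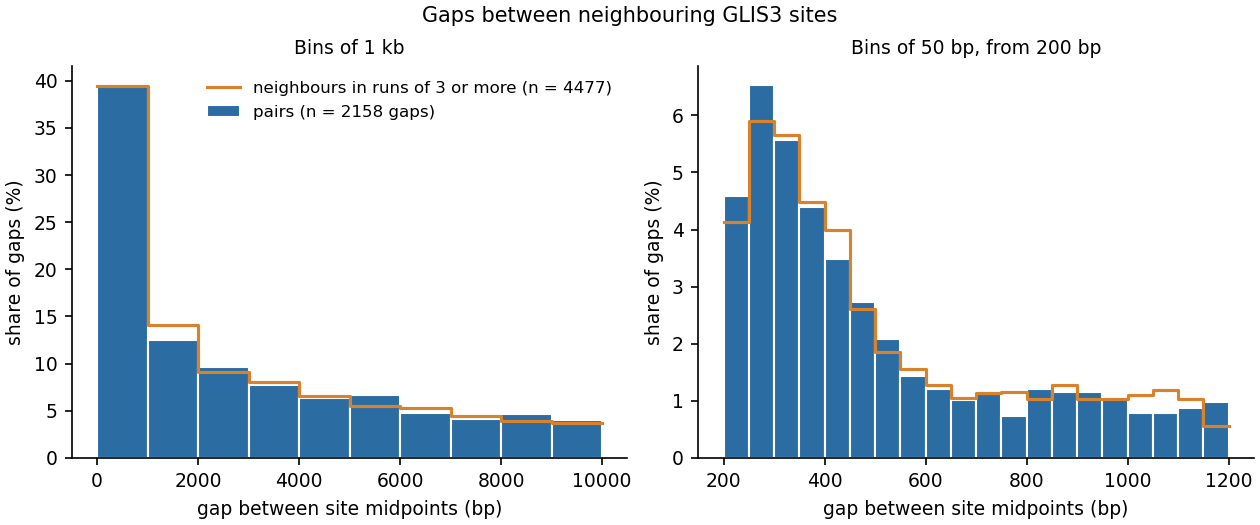
Gaps between midpoints of neighbouring GLIS3 sites (bp) as a share of all gaps (%), in steps of 1 kb on the left and of 50 bp from 200 bp on the right; blue bars are the 2158 pairs and the orange line is the 4477 gaps between neighbours in runs of 3 or more. Both fall steeply, from 39.6% of pairs within 1 kb to 3.99% between 9 and 10 kb, and both are fullest between 250 and 300 bp. No gap is below 210 bp, so the first step of 50 bp is not open over its whole width.

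Gaps in longer runs were spread much like those of pairs. Their median was 1670 bp, with quartiles of 460 and 4660 bp over 4477 gaps. The share within 1 kb was 39.4% (38.0 to 40.9) in longer runs and 39.6% in pairs, and the share within 2 fragment lengths was 20.9% (19.7 to 22.1) against 22.1% (20.3 to 23.9).

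Outside the pair, the next site lay far away by comparison. The distance to the next site on either side had a median of 56980 bp, against 73930 bp around single sites and 43070 bp around runs of 3 or more. All of these are above 10 kb by the choice of members. In 690 pairs (32.0%) another site lay within 20 kb of the pair, and in 315 pairs none lay within 100 kb.

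Paired sites held slightly more tags than single sites and fewer than sites in longer runs. Their median was 13 tags, with quartiles of 10 and 19 and a range of 9 to 129 tags. Single sites had a median of 12 tags (quartiles 10 and 17), and sites in runs of 3 or more a median of 14 (quartiles 10 and 21). The order was clearer at the upper end: sites with at least 20 tags made up 23.8% of paired sites (22.6 to 25.1), 18.04% of single sites (17.2 to 18.9) and 29.01% of sites in longer runs (27.9 to 30.2). Sites with over 50 tags were 128 of 4316 in pairs (2.97%, 2.48 to 3.52), 1.59% of single sites (1.33 to 1.88) and 4.76% of sites in longer runs (4.24 to 5.34). None of these intervals overlap, but all sites come from 1 library and are not replicates. At the low end, 722 paired sites (16.7%) had exactly the minimum of 9 tags.

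Paired sites had 0 or 1 tag in the WT capture slightly less often than single sites. The deposited fold, which is the tag count over the WT tags scaled by library size, had a median of 13.74 in pairs (quartiles 10.3 and 19.46), 12.59 at single sites and 13.74 in longer runs. Where the number of WT tags could be recovered as a whole number, 80.0% of 4132 paired sites had 0 or 1 WT tag (78.8 to 81.2), against 82.4% of single sites (81.5 to 83.2) and 81.7% in longer runs (80.6 to 82.7). The intervals of paired and single sites do not overlap. A site with no WT tag is listed as if it had 1, so its fold is a lower bound. At the other 184 paired sites the listed tags and fold gave no whole number, so the fold was not exactly this ratio there. In the authors' caller, a p-value of 0.001 or less was reached by both partners in 1565 pairs (72.5%), by 1 partner in 540 and by neither in 53.

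The tags at the 2 sites of a pair were almost uncorrelated. The Spearman correlation between the lower-coordinate and the higher-coordinate site was -0.02 over 2158 pairs, and Pearson's r of log2 tags was -0.03. These values describe 1 library and are given without a p. Most counts lie near the minimum of 9 tags, where counting error is large: a count of 9 has a Poisson 95% interval of 4.12 to 17.1. The same measure was 0.02 over the 4477 neighbours in longer runs and 0.02 over 5807 successive single sites more than 10 kb apart. In pairs, as in successive single sites, the tags at a site thus told little about the tags at its neighbour.

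By gap, the Spearman correlation was -0.12 in the 266 pairs up to 300 bp and -0.17 in the 210 pairs from there to 2 fragment lengths. It was -0.06 in the 378 pairs from there to 1 kb and -0.05 in the 270 pairs between 1 and 2 kb. It was 0.07 both in the 513 pairs between 2 and 5 kb and in the 521 pairs between 5 and 10 kb. All are weak. Among neighbours up to 1 kb apart it was -0.10 in the 854 pairs and -0.03 in 1765 gaps of longer runs.

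A strong site had a partner of ordinary strength. The 128 pairs with a site over 50 tags had partners of 9 to 43 tags, with a median of 13 and quartiles of 10 and 18. The partners of sites with 9 or 10 tags also had a median of 13, with quartiles of 10 and 19, over 1281 sites. No pair had more than 50 tags at both sites, and 0 of 2158 pairs allows a share of up to 0.139% by a limit of 3 counts, or 0.171% by the exact binomial interval. Sites over 50 tags are few, and such neighbours were also rare elsewhere, with 3 of 5807 among successive single sites and 4 of 4477 in longer runs. At least 20 tags were found at both sites in 113 pairs (5.24%), at 1 site in 803 and at neither in 1242.

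**Figure D2:**
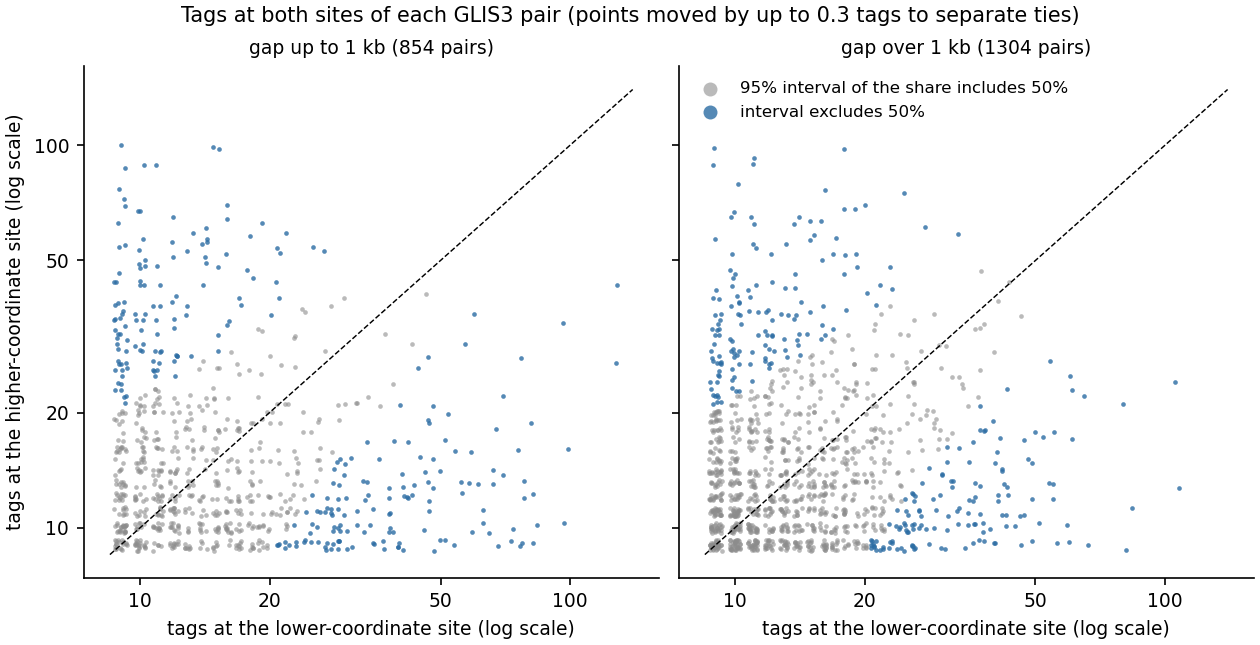
Tags at the lower-coordinate site (x axis, log scale) against tags at the higher-coordinate site (y axis, log scale) of each pair, for gaps up to 1 kb (854 pairs, left) and over 1 kb (1304 pairs, right); the dashed line marks equal tags and blue points are pairs whose sites differ beyond counting error. Most points lie at low counts, and the highest counts at 1 site stand beside 9 to 43 tags at the other.

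Strong partners were also counted by the tags at the site itself. Each pair was entered from both sides, so the classes share pairs, and the intervals treat these entries as independent. With a gap up to 1 kb, 30.02% of the partners of sites with 9 or 10 tags had at least 20 tags (26.0 to 34.3), against 21.2% of the partners of sites with 20 to 29 tags (16.1 to 27.1). Over the 6 classes of own tags from lowest to highest, the share in these close pairs was 30.02%, 29.3%, 24.7%, 21.2%, 21.1% and 17.3%, so it was lower beside stronger sites. With a gap over 1 kb the shares were 21.2% (18.4 to 24.2) and 23.2% (18.9 to 28.0). Among successive single sites they were 17.7% (16.5 to 18.9) and 17.0% (15.0 to 19.2).

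**Figure D3:**
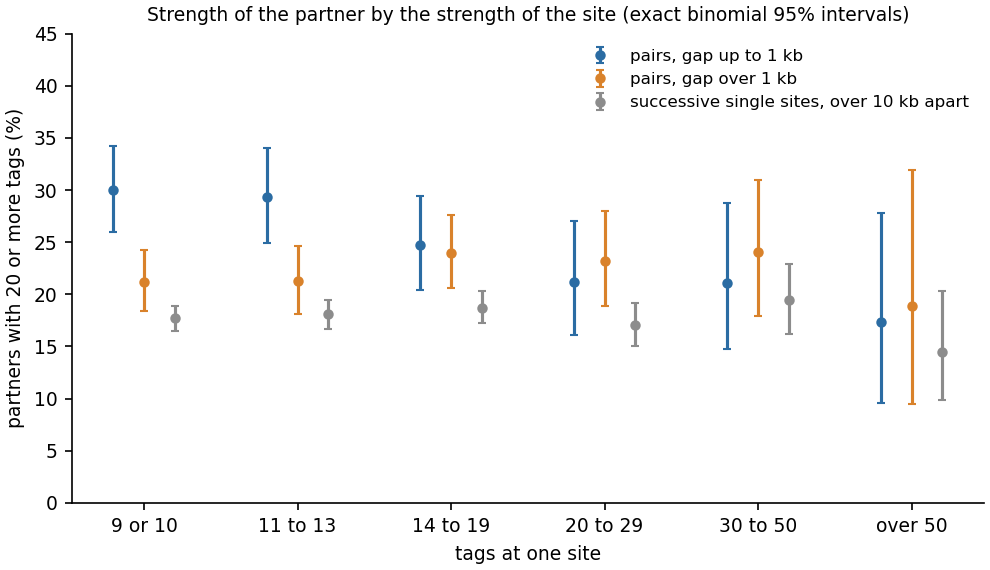
Share of partners with at least 20 tags (%) by the tags at the site itself, each pair entered from both sides, for pairs with a gap up to 1 kb (blue), over 1 kb (orange) and successive single sites over 10 kb apart (grey), with exact binomial 95% intervals. In close pairs the share goes from 30.02% beside sites with 9 or 10 tags to 17.3% beside sites over 50 tags, while single sites stay between 14.5% and 19.4%.

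Strong sites were more common in close pairs. Sites with over 50 tags made up 75 of 1708 sites in pairs up to 1 kb apart (4.39%, 3.47 to 5.47) and 53 of 2608 sites in wider pairs (2.03%, 1.53 to 2.65). Of the 128 pairs with such a site, 75 (58.6%, 49.6 to 67.2) had a gap up to 1 kb, against 39.6% of all pairs. Their median gap was 540 bp. The median count was 13 tags in pairs up to 1 kb and in wider pairs alike, so the difference lay in the upper tail.

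The stronger site of a pair had a median of 18 tags and the weaker a median of 10. The ratio of the stronger to the weaker had a median of 1.5, with quartiles of 1.19 and 2.17 and a highest value of 11.1. It was at least 2 in 666 pairs (30.9%) and at least 3 in 292 pairs (13.5%), and 151 pairs (7.00%) had equal tags. Among successive single sites, the stronger of each 2 had a median of 16 tags and the weaker a median of 10, with a median ratio of 1.4. In longer runs the medians were 20 and 11 tags and the median ratio was 1.56.

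To set these ratios against counting error, the share of a pair's tags at its stronger site was given an exact binomial 95% interval, and a pair was said to differ beyond counting error where that interval excluded 50%. This was so in 565 of 2158 pairs, or 26.2% (24.3 to 28.1). The same rule counted 18.9% of 5807 successive single sites (17.9 to 19.97) and 32.0% of 4477 neighbours in longer runs (30.7 to 33.4). Pairs thus stood between the other groups. The minimum of 9 tags sets much of these shares, since below 30 summed tags no split with at least 9 tags at each site can pass. This applied to 1117 pairs (51.8%), to 61.8% of successive single sites and to 43.7% of neighbours in longer runs. Of the 1041 pairs with 30 or more summed tags, 565 (54.3%, 51.2 to 57.3) differed and 476 did not, against 49.5% of successive single sites (47.4 to 51.7) and 56.9% in longer runs (54.9 to 58.8).

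The share that differed moved with the gap and with the number of tags. It was 38.0% (32.1 to 44.1) up to 300 bp and 31.4% (25.2 to 38.2) from there to 2 fragment lengths. It was 22.6% (17.7 to 28.1) between 1 and 2 kb and 22.8% (19.3 to 26.7) between 5 and 10 kb. For gaps up to 1 kb it was 32.1% in pairs (28.96 to 35.3) and 40.3% in longer runs (38.0 to 42.6).

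More tags make a difference easier to detect. Where both sets had 30 or more summed tags, 61.0% of 449 pairs up to 1 kb apart differed (56.3 to 65.6), against 49.2% of 592 wider pairs (45.1 to 53.3). Of the 933 pairs with 25 to 39 summed tags, 17.5% differed (15.1 to 20.1), against 17.1% of successive single sites with as many tags (15.6 to 18.7). With 40 to 59 summed tags the shares were 66.0% of 365 pairs (60.9 to 70.9) and 62.2% (58.6 to 65.8), and with 60 or more they were 88.0% of 183 pairs (82.4 to 92.3) and 87.7% (83.1 to 91.5). The first of these classes includes sums below 30, which cannot pass. At like summed tags, pairs and single sites thus lay closer together than over all sums. By gap, 18.7% of pairs up to 1 kb apart with 25 to 39 summed tags differed, against 16.7% of wider pairs. With 40 to 59 summed tags the shares were 73.0% (65.2 to 79.9) and 61.0% (54.1 to 67.6), and with 60 or more they were 92.2% (85.1 to 96.6) and 82.7% (72.7 to 90.2). Close pairs thus had the higher share in all 3 classes, which were not compared by a test. Pairs with 60 or more summed tags were 8.48% of all pairs, against 4.49% of successive single sites.

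**Figure D4:**
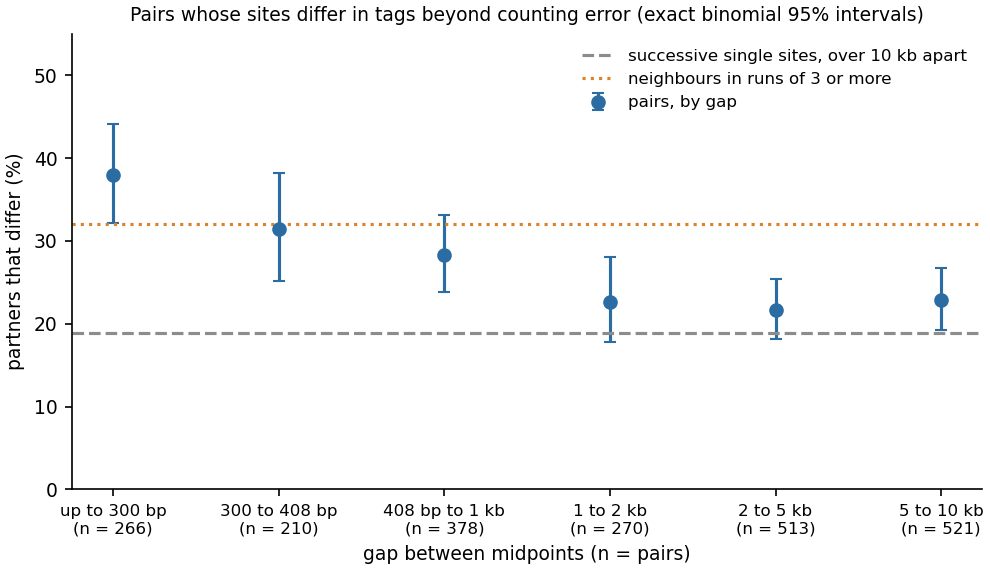
Share of pairs whose sites differ in tags beyond counting error (%), by the gap between midpoints, with exact binomial 95% intervals; the dashed line is the share among successive single sites (18.9%) and the dotted line that among neighbours in runs of 3 or more (32.0%). The share is 38.0% up to 300 bp and between 21.6% and 22.8% above 1 kb.

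The pairs with the most tags had 1 dominant site. The strongest pair lies on chromosome 19, with 129 tags (Poisson 95% interval 108 to 153) from 28608211 to 28608251 and 43 tags (31.1 to 57.9) from 28608451 to 28608731. Its sites are 360 bp apart, and the stronger holds 75.0% of the tags (67.8 to 81.3). Neither site had more than 1 WT tag, and the folds were 147.7 and 49.23. The choice of the strongest pairs favours high counts, which the intervals do not take into account.

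The next pair, on chromosome 11, had 128 tags from 35769251 to 35769291 and 27 tags from 35769491 to 35769531, at a gap of 240 bp. Here the WT capture differed between partners: the stronger had at most 1 WT tag and a fold of 146.55, and the weaker had 5 WT tags and a fold of 6.18. A pair on chromosome 9, at a gap of 450 bp, had 96 tags from 103610351 to 103610391 and 34 tags from 103610771 to 103610871.

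The other 3 of the 6 strongest pairs were wider. On chromosome 16, 106 tags from 23216591 to 23216631 stood 6700 bp from 24 tags at 23223291 to 23223331. Another pair on chromosome 16 had 108 tags from 11087231 to 11087431 and 13 tags from 11090851 to 11090911, at a gap of 3550 bp. On chromosome 12, 18 tags from 88208811 to 88208871 stood 4490 bp from 98 tags at 88213211 to 88213451. In all 6 pairs the stronger site's share was above 50% by its whole interval, and its counting interval did not overlap that of its partner. Such a share is common at high sums and not particular to these pairs. With 60 or more summed tags it was found in 88.0% of all pairs and in 87.7% of successive single sites.

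The most unequal pairs set a strong site beside one at or near the minimum. The highest ratio, 11.1, was on chromosome 11, with 9 tags (4.12 to 17.1) from 102265791 to 102265851 and 100 tags (81.4 to 122) from 102266171 to 102266211, at a gap of 370 bp. Ratios of 10.9 and 9.89 were found on chromosome 8, with 9 tags at 97688611 to 97688771 and 98 tags at 97691811 to 97691851, 3140 bp apart, and with 9 tags at 124878191 to 124878231 and 89 tags at 124879711 to 124879751, 1520 bp apart. A pair on chromosome 11 had 97 tags from 67021991 to 67022031 and 10 tags from 67022251 to 67022311, 270 bp apart. A pair on chromosome 12 had 9 tags from 8543031 to 8543071 and 87 tags from 8543511 to 8543551, 480 bp apart. A neighbour with fewer than 9 tags is not in the list, so the minimum limits how large a ratio can be seen.

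Among the 151 pairs with equal tags, counts were lower. The highest was on chromosome 12, with 30 tags at each site (20.2 to 42.8), from 106031351 to 106031471 and from 106040231 to 106040271, at a gap of 8840 bp. Pairs with 21 tags at each site lay on chromosome 10, starting at 19657211 and 19659471 (2230 bp apart), and on chromosome 15, starting at 37094151 and 37094551 (370 bp apart). All 6 of these sites had a fold of 24.04 or 34.35, with 0 or 1 WT tag.

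**Figure D5:**
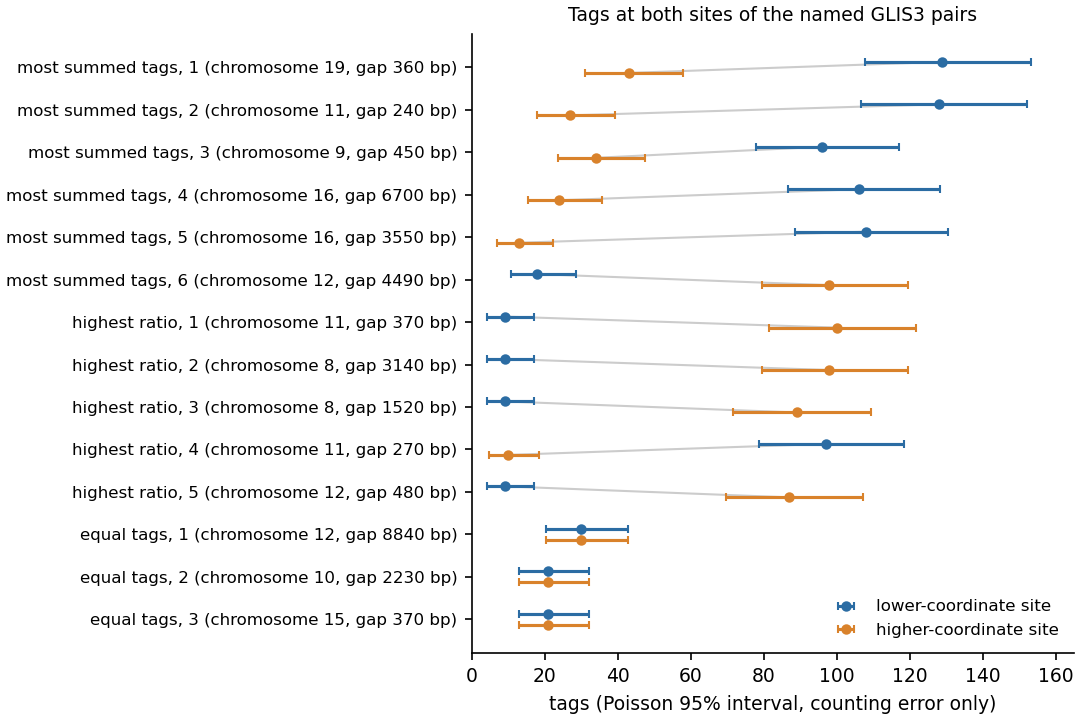
Tags at the lower-coordinate (blue) and higher-coordinate (orange) site of the 6 pairs with the most summed tags, the 5 with the highest ratio and the 3 with the most tags among equal pairs, with Poisson 95% intervals for counting error only. In the first 11 pairs the intervals of the partners do not overlap, and the strongest site holds 129 tags. These pairs were picked for high sums or high ratios, a choice that favours unequal partners.

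A high WT count was seldom shared by both partners, and it was rare in itself. Of 4132 paired sites with a whole number of WT tags, 5.25% had 3 or more (4.59 to 5.98). Of 1978 pairs with a whole number of WT tags at both sites, 1269 (64.2%) had 0 or 1 at each, and 205 had 3 or more at 1 site at least. Both sites had 3 or more in 2 of those 205 (0.976%, 0.118 to 3.48), against 3.59% among successive single sites (2.14 to 5.62) and 5.79% in longer runs (3.85 to 8.32). The interval of pairs overlaps that of successive single sites but not that of longer runs. The share in pairs rests on 2 pairs and leaves out those without whole numbers. Successive gaps in longer runs, and among single sites, can share a site, which the intervals do not take into account. No difference is therefore drawn from them. Among pairs with whole numbers at both sites, the 2 that shared a high count lie on chromosomes 5 and 4. The first has 21 tags and 5 WT tags at 147072611 to 147072651 beside 11 tags and 6 WT tags at 147072811 to 147072891. The second has 9 tags and 4 WT tags at 56815251 to 56815331 beside 9 tags and 3 WT tags at 56815651 to 56815811. The folds in both pairs were between 2.10 and 4.81. Another of the 3 pairs with the most WT tags, on chromosome 1, had 54 tags and 6 WT tags from 54883671 to 54883731 and 27 tags with 0 or 1 WT tag from 54887191 to 54887331.

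The order along the chromosome carried little. The lower-coordinate site was the stronger in 1045 of the 2007 pairs whose tags were not equal (52.1%, 49.9 to 54.3), so a preference for either side was not detectable. Site width went with strength: the stronger site was wider than 60 bp in 48.9% of these pairs and the weaker in 42.2%. Sites wider than 60 bp were 29.9% in pairs up to 300 bp and 53.0% in pairs between 2 fragment lengths and 1 kb. In pairs between 5 and 10 kb they were 45.01%. The gap runs between midpoints and so includes part of both widths, which leaves less room for wide sites at short gaps. How far this bears on the low share up to 300 bp was not tested. The median width was 60 bp in pairs and in the whole list.

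Pairs were found on all 19 autosomes and the X chromosome. The share of a chromosome's sites that lay in pairs ran from 19.9% on chromosome 9 (17.6 to 22.4) to 27.2% on chromosome 14 (24.02 to 30.6), with a median of 23.5% over autosomes. The median gap ran from 1270 bp on chromosome 18 to 2530 bp on chromosome 3. The Spearman correlation of partner tags lay between -0.20 and 0.10, and was above 0 on 8 of 19 autosomes. No autosome thus gave a strong relation between partners in either direction.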

How the data were processed

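ChIP-Seq values came from 1 Glis3-EGFP GFP ChIP library (4516562 selected tags of 5336607) and 1 WT GFP ChIP library (5171171 tags). Per the file headers, the authors ran SISSRs 1.4 (P-value 0.05, E-value 10, scanning window 20 bp), keeping 1 tag per genomic position. The submitters' processing notes name Bowtie and mm9. The deposited count is the tags per site (at least 9). The deposited ratio, or fold (at least 2), is at most sites these tags over the WT tags scaled by library size, and the p-value was deposited as SISSRs gave it. The Methods of the paper describe another call, on mm10.

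Sites were chained by midpoint at 10 kb. WT tags were recovered from tags, fold and library sizes, whole within 2% at 17804 sites. The other 709 were all wider than 60 bp, and how the caller set their fold was not stated. Shares have exact binomial (Clopper-Pearson) and counts Poisson 95% intervals, for counting error only. The intervals treat entries as independent, though a site in a longer run or among successive single sites can enter 2 gaps. With 1 library per group no test between conditions was made. Pairs were named by rank of summed tags, ratio, equal tags, gap and WT tags. The members and lists were chosen with earlier results of these data known, and gap and tag classes were set after values were seen. Chaining and correlation were tested on simulated data. The simulation held neither the shortest gaps nor overlapping fragments. It raised counts below the minimum to the minimum, whereas the list leaves such sites out. Work was done with SciPy 1.17.1, pandas 2.3.3 and NumPy 2.4.6 in Python 3.11.15, and plots with Matplotlib 3.10.9. Input and RNA libraries were not analysed here.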

Additional observations from a re-analysis of the deposited data

How the results depend on the processing

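Of 71 values under other settings, 42 lay within the 95% interval of the reported value, or within 1.5 times it for the number of pairs, and 29 moved. The number of pairs was 1198 with sites of at most 60 bp and 1101 with a minimum of 13 tags. The median gap was 940 bp with chaining at 5 kb, 3710 bp at 20 kb, 2100 bp with narrow sites, 2860 bp in pairs over 2 fragment lengths apart, 4110 bp with sites within 1 kb merged and 2220 bp at 13 tags. The share within 1 kb was 51.9% at 5 kb, 30.1% at 20 kb, 37.3% at a p-value of at most 0.001, 22.5% over 2 fragment lengths, 0% after merging, by construction, and 34.3% at 13 tags. The Spearman correlation stayed between -0.07 and 0.07 under all 11 settings run, with -0.0688 in narrow sites and 0.0662 after merging. The median ratio was 1.44 at 20 kb, 1.56 at the stricter p-value and 1.6 in narrow sites. The share of pairs that differed beyond counting error was 28.4% at 5 kb, 23.6% at 20 kb, 29.7% at the stricter p-value, 32.5% in narrow sites, 23.7% over 2 fragment lengths and 31.4% at 13 tags. The median tags were 14 at the stricter p-value and after merging, 12 in narrow sites and 19 at 13 tags. Several of these shifts follow at least in part from the setting itself. They are the gap values with other chaining limits, over 2 fragment lengths and after merging, and the median tags at 13 tags. For the other shifts the cause was not tested. Leaving out the 1% of pairs with the most tags was added after the data were seen and moved no value. No paired analysis was possible because each ChIP group has 1 library and the RNA libraries that share replicate numbers were not analysed here.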

Other observations

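On the X chromosome, 24 pairs held 48 of 178 sites (27.0%, exact binomial 95% interval 20.6 to 34.1), within the range of the autosomes. Runs of 3 or more held 3.37% of its sites and single sites 69.7%, against 20.6% and 55.3% on chromosome 3, the autosome with the smallest share in longer runs. The median gap within the X-linked pairs was 910 bp, and 54.2% of them lay within 1 kb, against 28.6% to 43.7% on the autosomes. With 24 pairs in 1 library, these values are a description and were chosen after they were seen.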
